A study of Mus musculus with 8 samples.

Results

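The genes described here encode proteins of the hyaluronan matrix around neurons, including the condensed form called the perineuronal net. They were chosen by name, with 10 genes in the list (Acan, Bcan, Ncan, Vcan, Hapln1, Hapln2, Hapln4, Tnr, Has3 and Ptprz1). Of these, 8 have values among the 14353 genes of the deposited table. Hapln2 and Has3 have none and are not analysed here. All 8 entered the test, which took genes with a deposited level over 1 CPM (reads of a gene scaled to the size of the library, here after a further shift between pools that is described below) in at least 3 libraries. By its deposited levels Acan passed narrowly, in 4 of 8 libraries.

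RNA was sequenced from the ventral pallidum (VP) of mice that carried VGluT2-Cre on both alleles and the tagged Rpl22 (RiboTag) allele on 1. Cre in this line is expressed from the gene of the vesicular glutamate transporter vGluT2, and it switches on an HA tag on a ribosomal protein, so an antibody against HA collects mRNA on the ribosomes of VP glutamatergic (VP Glu) neurons. The switch is permanent, so a cell that used the gene only earlier in life is tagged as well. Each of 4 pools of untreated mice, VP1.6 (7 mice, 9 to 12 weeks old), VP2.2 (10 mice), VP2.6 (11 mice) and VP2.11 (10 mice, all 3 at 10 to 16 weeks), held tissue of both sexes and gave 1 TRAP library (the ribosome-bound mRNA) and 1 INPUT library (mRNA of all neurons and glia in the lysate). The comparison of TRAP with INPUT asks which matrix transcripts were relatively more or less abundant on the tagged ribosomes than in the tissue. In such bulk RNA, fewer cells of a type and less RNA per cell cannot be told apart.

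Hyaluronan is a long sugar polymer that is made at the cell surface by hyaluronan synthases. Lecticans (aggrecan, brevican, neurocan and versican) are chondroitin sulphate proteoglycans that bind it, link proteins of the Hapln family lock them onto it, and tenascin-R cross-links lecticans at their other end. In the brain, aggrecan-rich nets are best known around parvalbumin neurons, whereas brevican, neurocan, versican and the receptor phosphatase encoded by Ptprz1 are commonly assigned to astrocytes and oligodendrocyte precursors. Hapln4 and Hapln1 are commonly assigned to neurons, and Tnr to cells of the oligodendrocyte lineage and some neurons.

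In GENCODE release M21 (GRCm38), lectican and link protein genes lie side by side with no annotated gene between them. Ncan, on chromosome 8 from 70093085 to 70120873, and Hapln4, from 70083457 to 70090862, face each other tail to tail across 2222 bases. Vcan, on chromosome 13 from 89655312 to 89742509, and Hapln1, from 89539796 to 89611652, are arranged the same way across 43659 bases. Bcan, on chromosome 3 from 87987531 to 88000230, lies 21519 bases from Hapln2. Acan, on chromosome 7 from 79053483 to 79115099, ends 2 bases from the end of Hapln3, which also has no values here. Tnr lies on chromosome 1 from 159523769 to 159931729 and Ptprz1 on chromosome 6 from 22875502 to 23052916.

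Of the members that rose in TRAP (below), Ncan, Bcan and Tnr have a RefSeq promoter of the build GRCm38.p6, and these are shown because all 3 transcripts were called higher, though not with the same differences from pool to pool. Each is the 250 bases before the RefSeq start, 5′ to 3′ on the strand of the gene. They are chr8:70120845-70121094 (minus) for Ncan, chr3:88000357-88000606 (minus) for Bcan and chr1:159523519-159523768 (plus) for Tnr. GENCODE starts Tnr at the same base, but Ncan at 70120873, inside its window, and Bcan at 88000230. The bases after the RefSeq start of Bcan were not matched to a GENCODE transcript. Capitals mark GGGCGG, called a GC box, on either strand. They also mark the CCAAT box, again on either strand. The last motif in capitals is a TATA box, spelled TATAAA and searched in the same way.
Ncan: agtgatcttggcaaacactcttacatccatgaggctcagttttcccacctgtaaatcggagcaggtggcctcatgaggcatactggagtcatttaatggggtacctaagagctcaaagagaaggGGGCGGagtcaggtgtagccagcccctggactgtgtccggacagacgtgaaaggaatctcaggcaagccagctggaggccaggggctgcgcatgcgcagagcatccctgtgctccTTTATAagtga
Bcan: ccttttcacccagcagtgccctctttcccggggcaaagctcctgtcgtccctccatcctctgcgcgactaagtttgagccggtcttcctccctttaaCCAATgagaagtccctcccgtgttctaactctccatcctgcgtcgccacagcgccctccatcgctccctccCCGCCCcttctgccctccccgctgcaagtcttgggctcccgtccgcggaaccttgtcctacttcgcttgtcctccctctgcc
Tnr: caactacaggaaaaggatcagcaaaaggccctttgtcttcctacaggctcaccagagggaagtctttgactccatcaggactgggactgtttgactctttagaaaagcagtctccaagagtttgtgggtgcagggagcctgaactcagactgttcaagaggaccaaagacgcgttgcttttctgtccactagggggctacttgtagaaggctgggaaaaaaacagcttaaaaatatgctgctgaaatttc
The promoter of Ncan held 1 GC box and 1 match to TATAAA, that of Bcan 1 GC box and 1 CCAAT box, and that of Tnr none of the 3. The TATAAA match of Ncan is on the opposite strand (TTTATA). It lies past the GENCODE start, within the gene as GENCODE annotates it. Across 32851 RefSeq promoters of this length, 32.7% held a GC box, 33.8% a CCAAT box and 12.4% a TATA box. An E-box (CANNTG) was found in 66.2% of all promoters, 4 times in that of Ncan and in neither of the other two. The cAMP response element (TGACGTCA) was found in 1.55% of all promoters and in none of these. GC content was 54.4% for Ncan, 62.0% for Bcan and 46.8% for Tnr, with a median of 52.4% over all promoters. No motif searched was in all 3 promoters.

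Of the 8 genes, 4 rose in TRAP (Hapln4, Tnr, Bcan and Ncan) and none fell. This count is at an adjusted p under 0.05 from limma with the pool as a block and Benjamini-Hochberg adjustment over all 14249 genes, of which 15.4% were higher and 16.8% lower in TRAP (32.2% in either direction). No member had an unadjusted p under 0.05 with a lower level in TRAP. The median log2 fold change was 0.78 over the 8 genes and -0.05 over all genes tested. Hapln4, Tnr and Ncan were higher in TRAP in all 4 pools, as were 23.3% of all genes tested. A further 24.4% of all genes were lower in all 4 pools, among them no member. Without the block the same 4 members were called, beside 23.2% of all genes higher, 24.8% lower and 47.9% in either direction. That fit takes the libraries of a pool as independent, which they are not (below), so it is no check on the calls. With library weights Hapln1 was also called, as lower in TRAP (log2 fold change -1.13, adjusted p from limma 0.013).

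**Figure D1:**
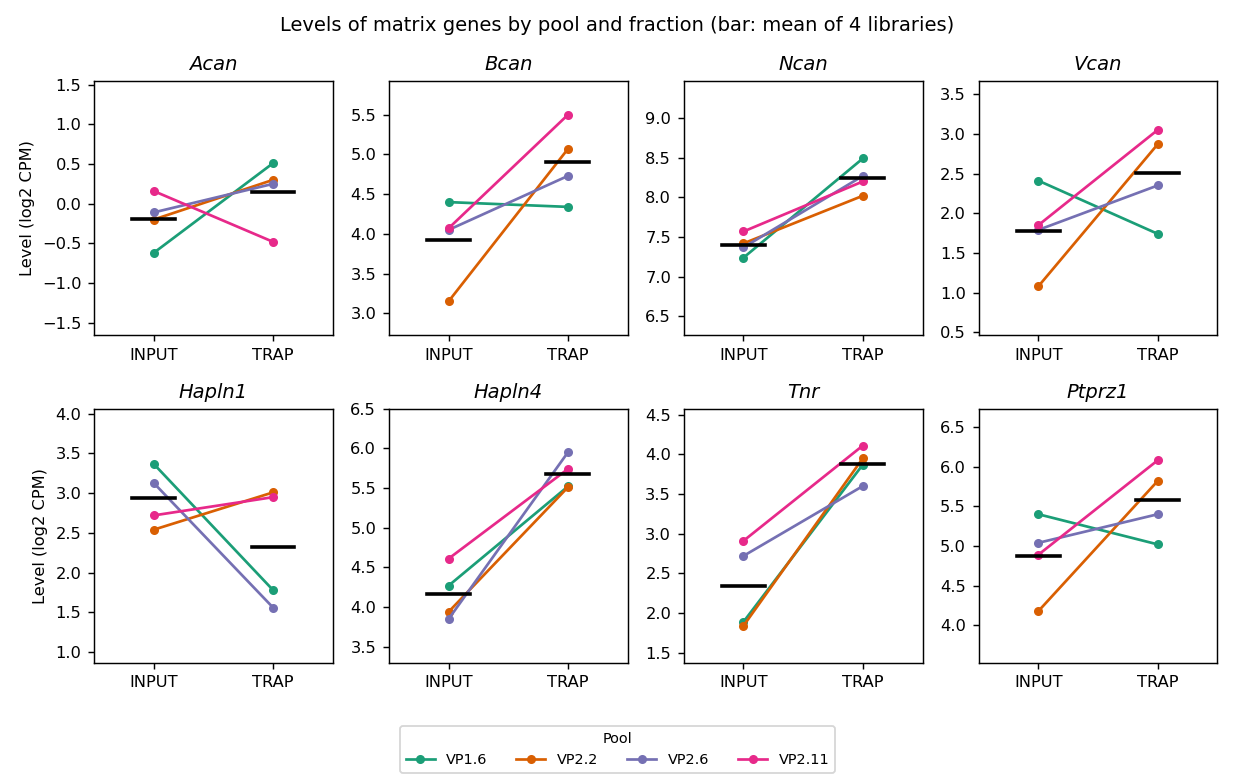
Level of each gene in log2 CPM (vertical axis, the same span of 3.2 log2 units in each panel) in the INPUT and the TRAP library of each pool, joined by a line per pool, with black bars for the mean of 4 libraries. Lines for Ncan, Hapln4 and Tnr rise in every pool, whereas those for Bcan, Vcan and Ptprz1 rise in 3 pools and not in VP1.6.

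Ncan, which encodes neurocan, was the most abundant member. Its level in TRAP was 8.49 log2 CPM in VP1.6, 8.02 in VP2.2, 8.27 in VP2.6 and 8.20 in VP2.11. In INPUT it was 7.24, 7.42, 7.37 and 7.57 log2 CPM in the same order of pools. Every TRAP library was above every INPUT library, as in 23.3% of all genes tested. The 4 libraries of a fraction lay close together, in levels that carry the shift between pools described below. The means were 305 ± 41.4 CPM in TRAP and 170 ± 16.0 CPM in INPUT (SD, n = 4 libraries each). TRAP was 1.79-fold higher, a log2 fold change of 0.84 (standard error 0.22, 95% interval 0.38 to 1.30, adjusted p from limma 0.0087). The rise was largest in VP1.6, at 1.25 on the log2 scale, and without that pool Ncan was no longer called (log2 fold change 0.71, adjusted p from limma 0.085).

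Bcan, which encodes brevican, had 4.34 log2 CPM in TRAP VP1.6, 5.07 in VP2.2, 4.73 in VP2.6 and 5.50 in VP2.11. INPUT gave 4.40, 3.15, 4.05 and 4.07 log2 CPM in these pools. TRAP was above INPUT in 3 pools and level with it in VP1.6, where the difference was -0.06. The means were 31.4 ± 10.7 CPM in TRAP and 15.8 ± 5.09 CPM in INPUT (SD, n = 4 each), a log2 fold change of 0.99 (standard error 0.31, 95% interval 0.34 to 1.65, adjusted p from limma 0.023). In VP2.2, 1268 reads in TRAP and 1016 in the larger INPUT library give the deposited ratio. The call rested on VP2.2 and VP2.11, with within-pool differences of 1.92 and 1.43. Without VP2.2 the log2 fold change of Bcan was 0.69 (adjusted p from limma 0.099), and without VP2.11 it was 0.85 (0.089).

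Vcan, which encodes versican, was low in both fractions. It had 1.74, 2.87, 2.35 and 3.05 log2 CPM in TRAP, with the pools in the order given for Ncan. Its INPUT levels were 2.41, 1.08, 1.79 and 1.85 log2 CPM. The fractions overlapped, with TRAP lower than INPUT in VP1.6 (-0.67) and higher in VP2.2 (1.79), VP2.6 (0.56) and VP2.11 (1.20). The log2 fold change of 0.72 (standard error 0.43, 95% interval -0.20 to 1.64) did not pass the test (adjusted p from limma 0.22), and the interval holds both no difference and one as large as that of Tnr.

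Acan, which encodes aggrecan, the lectican that most defines perineuronal nets, was near the lower limit of the table. Its level was 0.51, 0.30, 0.25 and -0.48 log2 CPM in TRAP, with the pools in the order given for Ncan, and -0.62, -0.20, -0.11 and 0.16 in INPUT. The fractions overlapped, and VP2.11 went against the other 3 pools. Means were 1.14 ± 0.30 CPM in TRAP and 0.892 ± 0.193 CPM in INPUT (SD, n = 4 each). The log2 fold change was 0.34 with a standard error of 0.71, the largest of the 8 genes (95% interval -1.17 to 1.84, adjusted p from limma 0.75). Acan did not vary most between pools. The SD of its within-pool differences was 0.73, below that of Bcan (0.86), Ptprz1 (0.89), Vcan (1.05) and Hapln1 (1.12) and above those of Ncan, Hapln4 and Tnr. Standard errors from limma also draw on genes of similar level, so they are not the spread between pools alone. In VP2.2 the fractions differ by a ratio that 36 reads in TRAP and 78 in INPUT give exactly, in a TRAP library 0.331 times the size of the INPUT library. With the library sizes recovered from the same differences, these reads would be 2.44 CPM in TRAP and 1.74 CPM in INPUT, against deposited values of 1.23 and 0.873 CPM. No difference in aggrecan mRNA was detected.

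Hapln4, which encodes the brain link protein Bral2, had the smallest adjusted p of the members. Its levels were 5.52, 5.51, 5.95 and 5.74 log2 CPM in TRAP, with the pools in the order given for Ncan. INPUT had 4.27, 3.94, 3.85 and 4.61 log2 CPM. All TRAP libraries exceeded all INPUT libraries, which held for 23.3% of all genes tested. Means were 51.7 ± 7.57 CPM in TRAP and 18.4 ± 4.55 CPM in INPUT (SD, n = 4 each), a 2.85-fold difference (log2 fold change 1.51, standard error 0.24, 95% interval 0.99 to 2.03, adjusted p from limma 4.7e-04). The differences within pools ran from 1.13 to 2.10. Hapln4 was called with each pool left out in turn, at a log2 fold change of 1.32 to 1.64.

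Hapln1, which encodes cartilage link protein (also a component of nets), was the only member with a lower mean in TRAP. Its TRAP levels were 1.78, 3.01, 1.56 and 2.95 log2 CPM in that order of pools, against 3.37, 2.54, 3.13 and 2.72 in INPUT. The pools split into a pair with lower TRAP levels (VP1.6 at -1.59 and VP2.6 at -1.56) and a pair with slightly higher ones (VP2.2 at 0.47 and VP2.11 at 0.23). The mean log2 fold change was -0.61 (standard error 0.41, 95% interval -1.49 to 0.26, adjusted p from limma 0.27). In VP2.2, 161 reads in TRAP and 353 in INPUT account for the ratio. The change of Hapln1 was below that of Hapln4 in all 4 pools, by 2.13 ± 1.34 on the log2 scale (SD, n = 4 pools, range 0.90 to 3.66).

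Tnr, which encodes tenascin-R, had 3.87, 3.95, 3.60 and 4.11 log2 CPM in TRAP, with the pools in the order given for Ncan. Its INPUT levels were 1.89, 1.84, 2.72 and 2.91 log2 CPM. Each TRAP library was above each INPUT library, again as in 23.3% of all genes tested. The means were 14.9 ± 2.13 CPM in TRAP and 5.35 ± 2.00 CPM in INPUT (SD, n = 4 each), a 2.91-fold difference and the largest of the 8 (log2 fold change 1.54, standard error 0.32, 95% interval 0.86 to 2.23, adjusted p from limma 0.0025). The difference was 1.98 in VP1.6, larger still in VP2.2, 0.89 in VP2.6 and 1.20 in VP2.11. In VP2.2 the difference corresponds to 332 reads in TRAP and 233 in the larger INPUT library. Tnr stayed called with each pool left out.

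Ptprz1 encodes a receptor tyrosine phosphatase whose secreted form, phosphacan, binds tenascin-R. It had 5.02, 5.82, 5.40 and 6.08 log2 CPM in TRAP, with the pools in the order given for Ncan, and 5.40, 4.18, 5.04 and 4.89 in INPUT. TRAP was lower in VP1.6 (-0.38) and higher in VP2.2 (1.64), VP2.6 (0.36) and VP2.11 (1.19). Means were 49.8 ± 15.5 CPM in TRAP and 30.7 ± 9.93 CPM in INPUT (SD, n = 4 each). The log2 fold change of 0.70 (standard error 0.30, 95% interval 0.07 to 1.34) missed the threshold after adjustment (adjusted p from limma 0.083). Without VP1.6 the log2 fold change of Ptprz1 was 1.06 and passed (adjusted p from limma 0.022). It was 0.39 without VP2.2 (0.31), 0.35 with library weights (0.26) and 0.19 after removal of a trend on exon length (0.58).

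**Figure D2:**
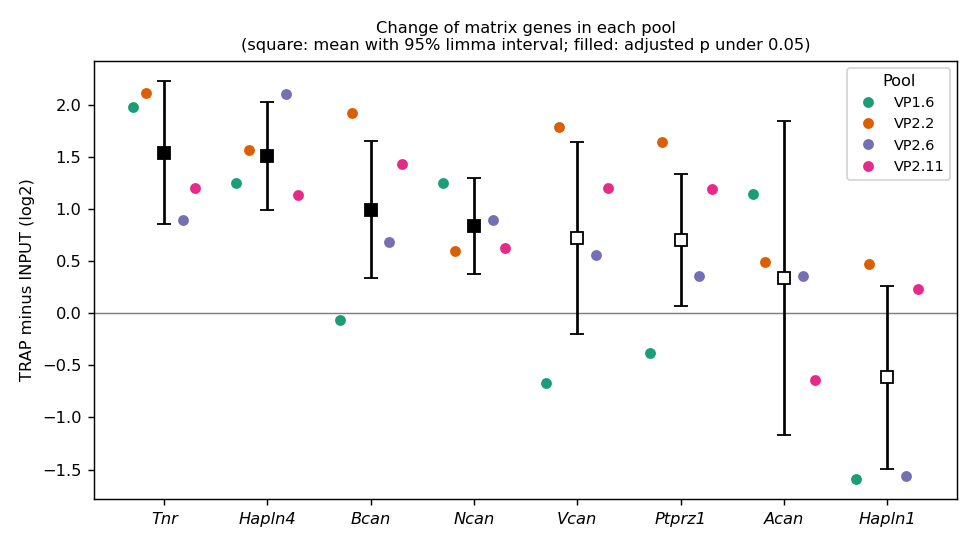
TRAP minus INPUT on the log2 scale (vertical axis) for each gene, with a coloured point per pool and a square for the mean with its 95% interval from limma, filled where the adjusted p was under 0.05. Tnr, Hapln4, Bcan and Ncan have filled squares between 0.84 and 1.54. The VP1.6 points of Bcan, Vcan, Ptprz1 and Hapln1 lie below 0, as do the VP2.6 point of Hapln1 and the VP2.11 point of Acan.

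The deposited levels do not vary freely between pools. In 14351 of 14353 genes some value lies between the TRAP and the INPUT level of all 4 pools at once, whereas after crossing the pools this held for 47.8% of genes. Non-overlap of the fractions and the same direction in 4 pools were therefore met by equal numbers of genes (3320 higher in TRAP), and the former adds nothing to the latter. A step that would give this pattern is not given in the sources used here. Levels of a gene in different pools are thus not independent of the differences within them, which bears on the levels and SDs given here. It also bears on the fit without the block, which takes all libraries as independent. Its standard errors were too small for such levels, at 0.14 against 0.22 with the block for Ncan and 0.40 against 0.71 for Acan. Results without the block are given for completeness and add no support. The reads settled in VP2.2 show a shift that differs between genes. The level from reads exceeded the deposited one by 1.34 log2 units for Bcan, 0.99 for Acan, 0.52 for Tnr and 0.43 for Hapln1. The excess is the same in both fractions by construction, since the read pairs were matched to the TRAP minus INPUT difference. For Bcan this is 84.8 CPM from reads against 33.5 CPM deposited in TRAP, and 22.5 against 8.88 CPM in INPUT. The absolute library sizes behind these levels are less sure than their ratio, but the unequal shifts do not depend on them. Among genes with a mean below 0 log2 CPM in the other pools, 98.0% in VP2.2 and 100.0% in VP2.6 had differences that matched whole reads. In these 2 pools TRAP minus INPUT is thus free of the shift. Rounded values did not allow the same check in VP1.6 and VP2.11, where it is assumed.

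Pool by pool, the members fell into sets. From lowest to highest, the TRAP minus INPUT difference of Bcan ran VP1.6, VP2.6, VP2.11 and VP2.2 (-0.06, 0.68, 1.43 and 1.92). Vcan, Ptprz1 and Hapln1 had this same order, so that 4 of the 8 genes shared it, against 5.66% of all genes tested. Ncan had exactly the opposite order (0.60 in VP2.2, 0.63 in VP2.11, 0.89 in VP2.6 and 1.25 in VP1.6), as did 5.62% of all genes. The change of Bcan exceeded that of Vcan in every pool, by 0.61 in VP1.6 and by less in VP2.6, VP2.11 and VP2.2 (0.12, 0.23 and 0.13). This order was noticed in the data and is given with no test.

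The medians of the astrocyte and of the oligodendrocyte precursor markers had the pool order of Bcan, but of the 10 genes only Slc1a3 had it singly. The median TRAP minus INPUT difference of 5 astrocyte markers was -1.80 in VP1.6, -1.47 in VP2.6, -1.03 in VP2.11 and -0.33 in VP2.2. That of 5 precursor markers was -2.35, -1.30, -1.12 and -0.66. Both were negative in every pool, and 4 of 5 genes in each list fell in TRAP, whereas Bcan was higher in 3 pools. The summed level of the astrocyte markers was 150 to 253 CPM in TRAP and 343 to 502 CPM in INPUT, and that of the precursor markers 23.8 to 59.1 CPM and 69.1 to 113 CPM, with no marker at 0. The summed level of 5 oligodendrocyte markers was 900 to 1630 CPM in TRAP and 3510 to 3810 CPM in INPUT, and 4 of these genes fell. The order was not limited to glial markers. Among 4 GABA and parvalbumin neuron markers, Gad2 had it singly (-0.88 in VP1.6, -0.32 in VP2.6, -0.29 in VP2.11 and 1.29 in VP2.2). Gad1 (-0.30 and 1.66), Slc32a1 (-2.27 and -0.60) and the list median (-1.11 and 0.35) were lowest in VP1.6 and highest in VP2.2. Pvalb was instead lowest in VP2.2 (-1.84). The part of RNA from glia or from GABA neurons in the differences of Bcan, Vcan, Hapln1 and Ptprz1 between pools was not tested.

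The labelled cell type was checked against its markers. Slc17a6, which encodes vGluT2, rose from 25.9 CPM in INPUT to 143 CPM in TRAP (2.55 on the log2 scale, limma adjusted p 7.3e-06), and 5 of 6 glutamatergic and pan-neuronal markers rose. Among the GABA and parvalbumin markers, Slc32a1 fell by 1.26 and Pvalb fell by 1.38 on the log2 scale, while Gad1 and Gad2 did not pass the test. Pvalb marks the neurons around which aggrecan-rich nets are best known. The summed level of these 4 genes was 969 to 1620 CPM in TRAP and 763 to 1520 CPM in INPUT, carried mostly by Gad1 and Gad2. Microglia markers fell in 3 of 5 genes. Of 4 endothelial and fibroblast markers with values, Flt1 rose and Col1a1 and Col1a2 fell.

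Differences between the changes of members of 1 family were compared within pools. The 7 pairs with values were tested by an exact sign-flip permutation test over 4 pools (two-sided), whose smallest possible p is 0.13, so no pair could pass 0.05. Hapln1 was below Hapln4, Bcan above Vcan and Acan below Ncan in 4 of 4 pools (exact permutation p = 0.13 each, 0.292 after adjustment over the 7 pairs). Acan changed less than Ncan by 0.51 ± 0.55 (SD, n = 4 pools), a gap no larger than its spread. For Bcan and Ncan the difference was 0.15 ± 1.16, and for Ncan and Vcan 0.12 ± 1.35 (SD, n = 4), and each changed sign between pools. The neighbours Ncan and Hapln4 on chromosome 8 both rose, whereas of the neighbours Vcan and Hapln1 on chromosome 13 neither passed the test and their means had opposite signs (0.72 and -0.61).

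Levels of different genes were compared per kilobase of exon, since longer transcripts collect more reads. The order is that of the deposited levels, in which the shift between genes seen in VP2.2 (0.43 to 1.34 log2 units) is as large as some of the gaps, such as 0.82 ± 0.50 between Hapln4 and Bcan in TRAP (SD, n = 4). In TRAP, Ncan was the highest at 42.4 ± 5.76 CPM per kilobase, followed by Hapln4 (13.2 ± 1.93), Bcan (7.72 ± 2.63) and Ptprz1 (3.49 ± 1.09). Below them were Tnr (1.16 ± 0.165), Hapln1 (0.939 ± 0.461), Vcan (0.416 ± 0.154) and Acan (0.153 ± 0.0402, SD, n = 4 libraries each). Each gene exceeded the next in all 4 TRAP libraries, except that Tnr exceeded Hapln1 in 3 of 4 (log2 gap 0.43 ± 0.59), so this pair did not differ beyond its spread. By deposited level, neurocan mRNA per length was 1.69 ± 0.28 log2 units above that of Hapln4 and aggrecan mRNA was last, below Vcan in 4 of 4 libraries.

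The order in INPUT was the same but for Hapln1, which stood above Tnr. In INPUT, Ncan had 23.6 ± 2.23 CPM per kilobase, and Hapln4 (4.68 ± 1.16) and Bcan (3.89 ± 1.25) did not differ beyond their spread, with Hapln4 ahead in 2 of 4 libraries. Tnr (0.415 ± 0.155) and Vcan (0.250 ± 0.0907) also overlapped, with Tnr ahead in 3 of 4. Hapln1 (1.33 ± 0.348) exceeded Tnr in all 4 INPUT libraries, by 1.72 ± 0.69 log2 units, where in TRAP it was the lower of the pair on average. The link protein with the higher level was Hapln4 in both fractions.

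**Figure D3:**
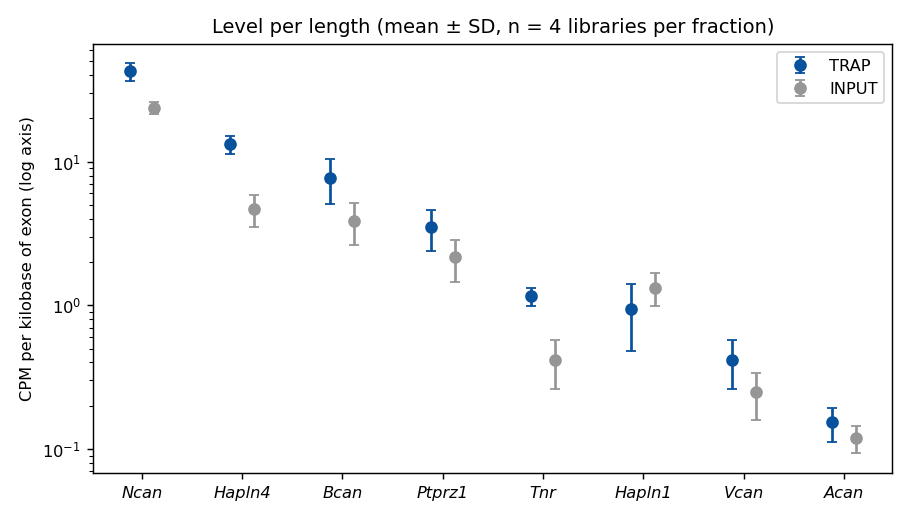
Level per kilobase of exon in CPM (vertical log axis) for each gene in TRAP and INPUT, as mean and SD over 4 libraries per fraction, ordered by the TRAP level. The genes span from 42.4 (Ncan) to 0.153 (Acan) in TRAP, and Hapln1 is the only gene with its INPUT mean above its TRAP mean.

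Genes whose pattern over the 8 libraries lay nearest to that of Acan and Bcan were sought by Euclidean distance between log2 levels centred on each gene's mean. For Acan these were Cep95 (distance 0.16), A830036E02Rik (0.19) and Stoml3 (0.21). For Bcan they were Plxna3 (0.20), Insr (0.24) and Mcm2 (0.24), with log2 fold changes of 1.03, 0.97 and 0.95. Of the 6, only Insr, the insulin receptor gene, was called (adjusted p from limma 0.042).

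Around the members, 89 further genes of the hyaluronan and proteoglycan system were listed, of which 72 were tested, 18 rose and 10 fell. Over all genes tested, 15.4% rose and 16.8% fell. Their median log2 fold change was 0.05. Proteoglycan receptors and partners moved most, with 9 of 15 genes higher, 1 lower and a median of 1.12. Cntn1, which encodes contactin-1, a binding partner of tenascin-R and of Ptprz1, rose by 1.43 on the log2 scale (adjusted p from limma 4.5e-04). Rtn4r, which encodes the Nogo receptor, rose by 1.87 (0.024), and Nptx2, a synaptic pentraxin, by 1.55 (0.0039). Mdk, which encodes midkine, a ligand of Ptprz1, was the 1 gene that fell, from 9.86 CPM in INPUT to 1.48 CPM in TRAP (log2 fold change -2.74, adjusted p 2.5e-04). The other ligand, pleiotrophin (Ptn), had 226 CPM in TRAP and 188 CPM in INPUT and did not pass the test (log2 fold change 0.27, adjusted p 0.40).

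Other brain proteoglycans went both ways, with 6 of 17 higher, 3 lower and a median of 0.25, against 15.4% higher and 16.8% lower over all genes. Cspg4, which encodes the proteoglycan NG2 of oligodendrocyte precursors and pericytes, rose by 1.98 (adjusted p from limma 8.8e-04). Of the 5 precursor markers 4 fell, among them Olig1 and Olig2 by 2.10 and 2.24. The remaining marker, Pdgfra, was not called (log2 fold change -0.28, adjusted p from limma 0.63). App, the amyloid precursor protein gene, rose by 1.95 and Gpc4, which encodes a glypican, by 1.86. Sdc4, which encodes syndecan-4, fell from 90.0 CPM in INPUT to 7.82 CPM in TRAP (log2 fold change -3.60, adjusted p 6.8e-07).

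Of 16 chondroitin sulphate synthesis genes tested, 4 fell and none rose, against 16.8% lower and 15.4% higher over all genes. The unadjusted p was under 0.05 for 5. Without the block, in a fit with standard errors too small for these levels, 6 fell and none rose, beside 24.8% lower and 23.2% higher over all genes. Csgalnact1, which starts the chondroitin chain, fell by 1.27 (adjusted p from limma 0.012), Chsy1, which extends it, by 1.03 (0.027), the sulphotransferase gene Chst12 by 0.77 (0.047) and the linker enzyme gene B3gat3 by 0.62 (0.046). The median of the list was -0.42.

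Among 14 matrix proteases and inhibitors, 3 rose and 2 fell, against 15.4% higher and 16.8% lower over all genes. Adamts1, which encodes a protease that cleaves lecticans, rose by 1.85 (adjusted p from limma 0.0078), and the membrane metalloproteinase genes Mmp15 and Mmp16 each rose by 0.99 (0.025 and 0.0090). Timp4, which encodes an inhibitor of metalloproteinases, fell from 19.1 CPM in INPUT to 1.62 CPM in TRAP (log2 fold change -3.79, adjusted p 1.5e-05). Hyaluronan receptors and breakdown enzymes (8 tested) and the remaining synthesis genes (Ugdh and Has1) held no called gene and none with an unadjusted p under 0.05 in limma with the block. Without the block, with the same limit, 1 of the 8 receptor and breakdown genes was called higher and 1 lower, beside 23.2% and 24.8% of all genes. Has1 stood at 1.53 CPM in TRAP and 2.13 CPM in INPUT.

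**Figure D4:**
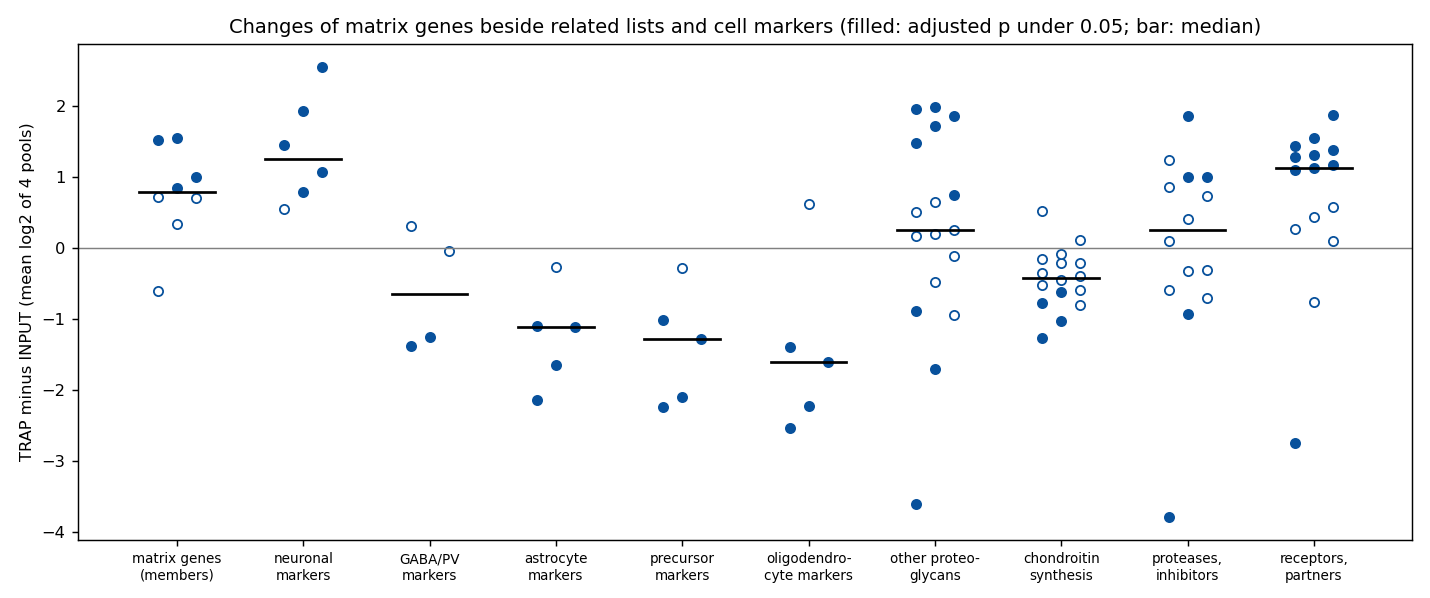
Mean TRAP minus INPUT on the log2 scale (vertical axis) of each gene in the matrix genes, in cell marker lists and in related gene lists, with a point per gene, filled where the adjusted p was under 0.05, and a bar at the median. The matrix genes have a median of 0.78, between the neuronal markers (1.26) and the astrocyte, precursor and oligodendrocyte markers (-1.12 to -1.60), and chondroitin synthesis genes have a median of -0.42.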

How the data were processed

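Both fractions of each pool came from 1 homogenate, so the pool was used as a block. Hapln2 and Has3 could not enter, so 7 pairs of members and the patterns nearest to Acan and Bcan were examined. The authors aligned reads with STAR 2.5.1a to the Ensembl release 76 primary assembly, counted unique reads per gene with featureCounts, scaled libraries by TMM (edgeR) and fitted limma with voom and quality weights. The authors removed ribosomal genes. The deposited per-library values are log2 CPM. The labels call the comparison fraction Input, whereas the methods once name an unbound fraction. The table also holds the authors' fold changes, limits and p-values, which were not used. The table has 14398 entries, 45 of which are repeats and were dropped. The test took the 14249 genes that exceeded 1 CPM in 3 or more libraries, with limma 3.58.1 (eBayes with a trend, R 4.3.3), a fit tested on simulated data, with Benjamini-Hochberg adjustment. The deviations of same-pool libraries correlated at -0.745 to -0.495 across genes, against 0.0457 to 0.441 between pools.

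The members, gene lists and tests were chosen with earlier results of these data known. All members are named, and of each list up to 4 called genes with the largest change, besides Ptn, Has1 and markers set beside a result. Exon lengths came from GENCODE M21. Total counts were not used here, and depth was read only where, in VP2.2, a difference matched whole reads within 2e-09 on the log2 scale by a single pair of read numbers. There the TRAP library was 0.331 times the INPUT library in size, and 0.503 times in VP2.6. Values of VP1.6 INPUT and of both VP2.11 libraries are rounded to 3 significant digits, so their depth is unknown.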

Additional observations from a re-analysis of the deposited data

How the results depend on the processing

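The log2 fold change of each member kept its sign under all 11 alternatives. Hapln4 and Tnr were called in all 11, Ncan in 10, Bcan in 9, Hapln1 and Ptprz1 in 1, and Vcan and Acan in 0. After removal of the trend on exon length, the log2 fold change was 0.19 for Ptprz1, 0.20 for Vcan, 0.07 for Acan, 1.07 for Tnr and 0.60 for Ncan, against 0.70, 0.72, 0.34, 1.54 and 0.84. A further fold threshold of 1 on the log2 scale left 2 members higher in TRAP. With library weights and the replicate block, 1 member (Hapln1) and 16 list genes were lower, against 0 and 10. Of the list genes, 6 were lower with the threshold of 1 and 5 to 11 with a pool left out, with 5 without VP1.6 and 6 without VP2.6. Leaving out a pool gave 3 to 4 members higher and 0 lower, 16 to 17 list genes higher and 3232 to 4156 genes called in all. With no replicate block, 6830 genes were called against 4592 with it, and the calls of the members did not change. This fit takes the libraries of a pool as independent, so among the 11 alternatives it adds no support. The ranks per kilobase in TRAP were the same with the longest transcript. Acan moved most with the scaling, from 0.34 to 1.47 under quantile normalization (adjusted p from limma 0.14), and the median of all genes moved from -0.05 to 0.04. No level or within-pool difference of a member lay apart by Dixon's ratio, in 24 groups where chance gives 1.2. The 95% interval of Acan, -1.17 to 1.84, was the widest of the members. Its width draws on genes of similar low level and not only on the spread of Acan between pools. Depth is known only in part, so its share in these limits was not tested.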
